A study of Homo sapiens with 4 samples.

Results

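SMAR1, also called BANP, is a nuclear matrix protein that binds DNA and recruits co-repressors with histone deacetylases. Its binding sites were mapped by ChIP-seq with an anti-SMAR1 antibody in HCT116, a human colorectal carcinoma cell line, used with p53 (HCT116 p53+/+) and in its p53-deficient derivative (HCT116 p53-/-), both untreated. The peak list of each line came from 1 library, so no value had a replicate error and no test between the lines was possible. Intervals given with shares are 95% Wilson intervals, which cover counting error only. The read depth behind a peak was not in the lists used here, and the IgG libraries were not analysed here.

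The peaks described here lay away from gene starts, inside protein-coding genes, and over a stretch in which T and G alternate. They were chosen by position and sequence alone: on chromosomes 1 to 22 and X, a peak centre more than 1 kb from every transcription start site (TSS), between the start and end of a protein-coding gene, with an uninterrupted T-G run of at least 12 bp (A-C on the other strand) and no T-C or A-G run of that length. The rule gave 578 of 5709 peaks in HCT116 p53+/+ and 736 of 8217 peaks in HCT116 p53-/-. Together these were 1314 of 13926 peaks at 1276 distinct loci. They made up 10.1% of the HCT116 p53+/+ list (9.37 to 10.9) and 8.96% of the HCT116 p53-/- list (8.36 to 9.59).

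T-G repeats are among the commonest dinucleotide repeats of mammalian genomes and vary in length between people and cell lines. The run lengths given here are those of the hg19 reference and were not measured in these cells. Alternating purine and pyrimidine can take the left-handed Z form. Inside a gene the strand matters for the transcript: UG repeats in RNA are bound by TDP-43 and CELF proteins, and CA repeats by hnRNP L, which are splicing regulators. In a peak list these repeats also matter for read placement, since a short read made of repeat alone matches many places.

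The sequences below show what the peaks look like on the plus strand of hg19. Each is a peak with 20 bp added on both sides, in lower case, and the capitals mark the longest uninterrupted T-G or A-C run, also where it ran on beyond the peak. The first 5 loci had a peak in both cell lines, with the best pairs of score ranks.
TMEM132C, HCT116 p53+/+ peak, chr12:128843030-128843104: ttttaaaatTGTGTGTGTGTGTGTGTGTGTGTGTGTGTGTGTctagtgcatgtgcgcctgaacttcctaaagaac
FAXC, HCT116 p53+/+ peak, chr6:99741522-99741602: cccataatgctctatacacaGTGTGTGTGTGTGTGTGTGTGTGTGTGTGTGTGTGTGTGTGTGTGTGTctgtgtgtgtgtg
SP140, HCT116 p53+/+ peak, chr2:231172694-231172783: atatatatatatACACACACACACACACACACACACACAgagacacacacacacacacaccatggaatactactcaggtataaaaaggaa
ASAH2B, HCT116 p53+/+ peak, chr10:52502771-52502854: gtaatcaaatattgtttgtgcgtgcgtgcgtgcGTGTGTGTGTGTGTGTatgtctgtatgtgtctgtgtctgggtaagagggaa
PTPRK, HCT116 p53+/+ peak, chr6:128467521-128467623: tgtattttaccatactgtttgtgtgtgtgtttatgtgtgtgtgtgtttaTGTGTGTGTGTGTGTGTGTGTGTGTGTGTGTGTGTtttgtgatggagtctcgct

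The next 6 sequences lay under the peaks with the highest scores of their lists, leaving out loci already shown. The first 3 are from HCT116 p53+/+ and the last 3 from HCT116 p53-/-.
KCNJ6, HCT116 p53+/+ peak, chr21:39218643-39218740: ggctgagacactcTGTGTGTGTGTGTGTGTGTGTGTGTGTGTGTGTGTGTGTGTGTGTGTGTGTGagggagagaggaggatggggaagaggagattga
ARHGAP6, HCT116 p53+/+ peak, chrX:11259638-11259721: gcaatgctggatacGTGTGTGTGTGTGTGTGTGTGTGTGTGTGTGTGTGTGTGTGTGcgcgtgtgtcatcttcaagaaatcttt
RHBDL3, HCT116 p53+/+ peak, chr17:30636182-30636256: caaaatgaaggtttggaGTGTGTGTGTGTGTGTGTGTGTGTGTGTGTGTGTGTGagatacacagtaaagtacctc
SNRPN, HCT116 p53-/- peak, chr15:25089244-25089320: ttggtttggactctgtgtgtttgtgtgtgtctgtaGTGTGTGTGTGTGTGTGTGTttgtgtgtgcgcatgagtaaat
SMC6, HCT116 p53-/- peak, chr2:17872559-17872644: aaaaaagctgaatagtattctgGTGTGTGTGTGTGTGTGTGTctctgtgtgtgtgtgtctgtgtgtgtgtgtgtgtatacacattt
ASTN2, HCT116 p53-/- peak, chr9:119704333-119704415: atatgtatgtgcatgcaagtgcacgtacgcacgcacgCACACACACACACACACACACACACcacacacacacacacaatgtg

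The last pair held the longest runs inside a peak of each list.
ADCY5, HCT116 p53+/+ peak, chr3:123043219-123043338: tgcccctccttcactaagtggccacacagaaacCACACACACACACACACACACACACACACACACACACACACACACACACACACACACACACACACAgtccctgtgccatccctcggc
NKAIN2, HCT116 p53-/- peak, chr6:125080679-125080826: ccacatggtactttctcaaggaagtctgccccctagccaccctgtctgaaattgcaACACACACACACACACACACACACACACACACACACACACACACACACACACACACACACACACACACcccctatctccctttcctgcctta

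Side by side, some sequences showed 1 long run with sharp ends (KCNJ6, ARHGAP6, RHBDL3). Others showed a run flanked by further T-G stretches across short breaks (SMC6, PTPRK, SP140). In NKAIN2 other sequence of the peak lay beside the run. The loci of KCNJ6, RHBDL3 and ADCY5 had no called peak in the other cell line.

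The T-G run filled most of the peak. The median length of the longest run inside the peak was 35 bp in HCT116 p53+/+ (quartiles 24 and 41, longest 66) and 36 bp in HCT116 p53-/- (quartiles 24 and 43, longest 68). Under the same position rule the genome held 64951 T-G runs of 12 bp or more, with a median of 17 bp (quartiles 13 and 30). Runs took up a median of 71.1% of the peak in HCT116 p53+/+ and 71.8% in HCT116 p53-/-, in peaks with a median length of 50 bp in both lists. In 58 and 69 peaks the run was the whole peak. A single run was found in 498 of 578 peaks and in 608 of 736 peaks.

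The centre of the longest run lay a median of 5.5 bp from the centre of the peak in both lists. It was within 10 bp in 71.8% of the peaks of HCT116 p53+/+ and in 74.6% of those of HCT116 p53-/-. At the exact centre 83.2% and 85.1% of the peaks had a base of a run. At 20 bp towards lower coordinates this was 44.3% and 51.2%, and at 20 bp towards higher ones 41.5% and 45.7%. Since the peaks were chosen for a run and the run filled most of the peak, these positions are a description that follows largely from the choice. In 285 peaks (49.3%) and 300 peaks (40.8%) the run went on beyond the edge of the peak.

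**Figure D1:**
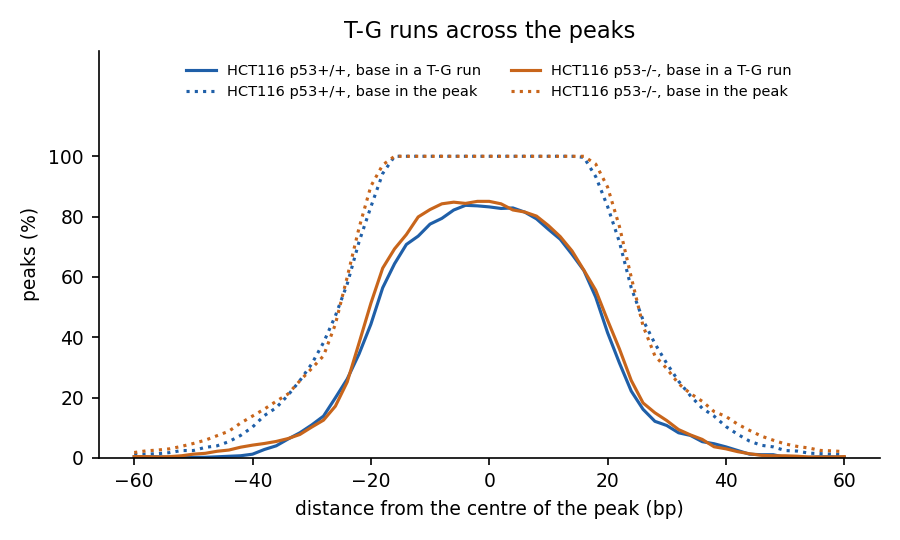
Share of peaks (y axis, percent) with a base of a T-G run of at least 12 bp (solid lines) and with a base inside the peak (dotted lines) at each distance from the peak centre (x axis, bp), for 578 peaks of HCT116 p53+/+ (blue) and 736 peaks of HCT116 p53-/- (orange). At the centre 83.2% and 85.1% of the peaks had a base of a run, in peaks that were chosen for holding one.

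Few T-G runs of coding genes lay in a peak, and the share rose with the length of the run. Of the 64951 runs, 765 had at least 12 bp in a peak of HCT116 p53+/+ (1.18%, 1.10 to 1.26) and 1102 in a peak of HCT116 p53-/- (1.70%, 1.60 to 1.80). These peaks include those that also hold a T-C run. With peaks from the median score of each list up, the order of the lines turned, to 0.688% and 0.622%. In HCT116 p53+/+ the share was 0.555% of runs of 12 to 19 bp, 0.935% at 20 to 29 bp, 1.77% at 30 to 39 bp, 3.56% at 40 to 49 bp and 5.88% from 50 bp (4.72 to 7.31). The same classes in HCT116 p53-/- gave 0.804%, 1.66%, 2.35%, 4.69% and 8.86% (7.42 to 10.5). Both lists thus had the same order of length classes, and the intervals of neighbouring classes did not overlap. A longer run is also a wider target for an overlap of 12 bp. When the whole run had to lie in the peak, the shares were closer together. This count works against long runs, since a run longer than a peak cannot lie wholly in it. The T-G peaks had a median length of 50 bp in both lists. Neither count therefore gives a share that is free of run length. In HCT116 p53+/+ the share was 0.511% (0.443 to 0.590) in the shortest class, 1.18% (0.929 to 1.49) at 40 to 49 bp and 1.10% (0.655 to 1.83) from 50 bp, so it did not go on rising over the last step. In HCT116 p53-/- it was 0.713% (0.631 to 0.805), 2.08% (1.74 to 2.48) and 2.51% (1.78 to 3.52) in the same classes.

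**Figure D2:**
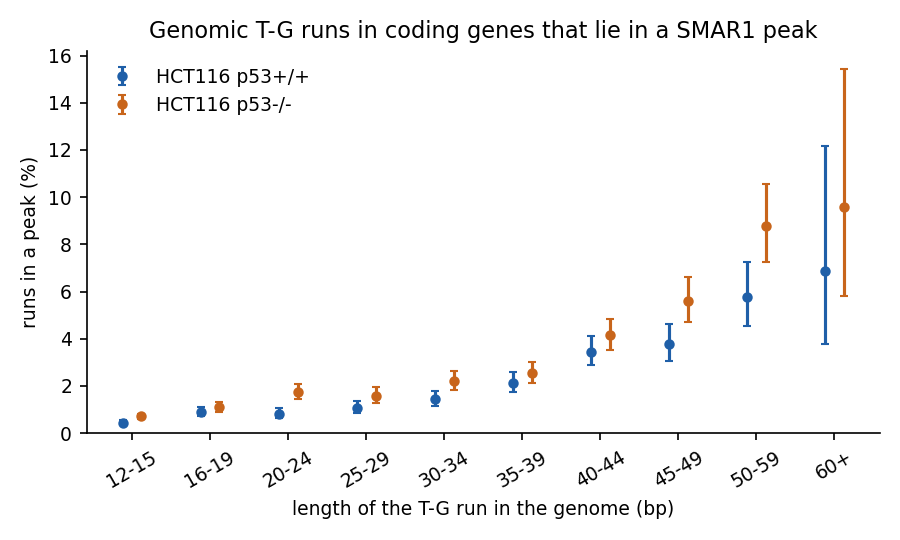
Share of genomic T-G runs in coding genes and over 1 kb from a TSS that had at least 12 bp in a SMAR1 peak (y axis, percent), by run length (x axis, bp), in HCT116 p53+/+ (blue) and HCT116 p53-/- (orange). Bars are 95% Wilson intervals; the share rose from 0.448% and 0.708% at 12 to 15 bp to 6.85% and 9.59% from 60 bp.

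Runs in a peak had flanks of somewhat higher GC content and slightly less often unique flanks than other runs. Among runs of 30 bp or more, the median GC content of the flanks was 42% for those in a peak, in either list, and 38% for the rest. The 31 bases on each side both occurred once in the genome for 80.3% of the runs in a peak of HCT116 p53+/+ (76.3 to 83.7) and for 84.3% of those in none, and for 488 of 610 (76.6 to 83.0%) against 84.3% in HCT116 p53-/-. The shares of the other runs lay above both intervals. The peaks themselves sat on repeated sequence. The 31 bases at the peak centre occurred once in the genome in 24.6% of the peaks of HCT116 p53+/+ and 22.01% of those of HCT116 p53-/-, with a median of 497 and 537 occurrences. The shares were 70.8% and 68.8% for distal coding-gene peaks without a repeat. The rule chose the former for a run and the latter for having none, so this difference is a description. How reads that match many places were handled before peak calling is not given in the sources used here, and its part in the results was not tested.

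Scores of the T-G peaks were moderate, and their place among other peaks was opposite in the lists. The score is the peak caller's p-value as −10 log10 p, so a higher score means a smaller p-value. It does not measure enrichment, which the lists do not hold. Scores were compared only within a list, except that some named peaks were picked by raw score over both lists. In HCT116 p53+/+ the median was 73.66 (quartiles 60.52 and 91.96), against 65.78 for pyrimidine-repeat peaks (with a T-C or A-G run of at least 12 bp) and 65.73 for peaks with no such run, all distal and in coding genes. In HCT116 p53-/- it was 65.06 (quartiles 59.39 and 81.32), against 73.92 and 69.54. The T-G peaks thus had the highest median of these 3 classes with p53 and the lowest without it. T-G peaks outside coding genes stood the same way, at 73.66 against 67.78 and 65.53 with p53 and at 66.65 against 75.33 and 70.74 without it. The median of the T-G peaks minus that of the other classes pooled was 7.93 in HCT116 p53+/+ and −7.48 in HCT116 p53-/-. Among peaks longer than the median peak of the list, the difference was 1.51 in HCT116 p53+/+ (95% interval −1.47 to 3.88) and −6.34 in HCT116 p53-/- (−8.73 to −4.08). These intervals come from the order statistics of the T-G median with the other median held fixed. The higher place of the T-G peaks with p53 was therefore not seen beyond counting error among the longer peaks. In the upper part of each list, from the median score up, T-G peaks in coding genes made up 12.5% with p53 and 6.62% without it.

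The scores took few values. Only 238 distinct scores occurred among the 578 peaks and 231 among the 736, and the commonest, 91.96 and 65.06, were shared by 41 and 115 peaks. Across peaks, the score did not follow the run length (Spearman's rank correlation −0.05 in HCT116 p53+/+, n = 578, and −0.10 in HCT116 p53-/-, n = 736), and shorter peaks scored higher (rank correlation −0.48 and −0.36). Peaks of 1 list share a library, so these are descriptions. Runs of 30 to 39 bp had the highest median score in HCT116 p53+/+, 80.98, and in HCT116 p53-/- the length classes from 20 bp up had a median of 65.06 each. At the edge of the sequence rule, the 11 and 14 peaks with a longest run of exactly 12 bp had medians of 67.31 and 68.68, and the 13 and 20 peaks left out with a run of 11 bp had medians of 65.25 and 81.61.

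**Figure D3:**
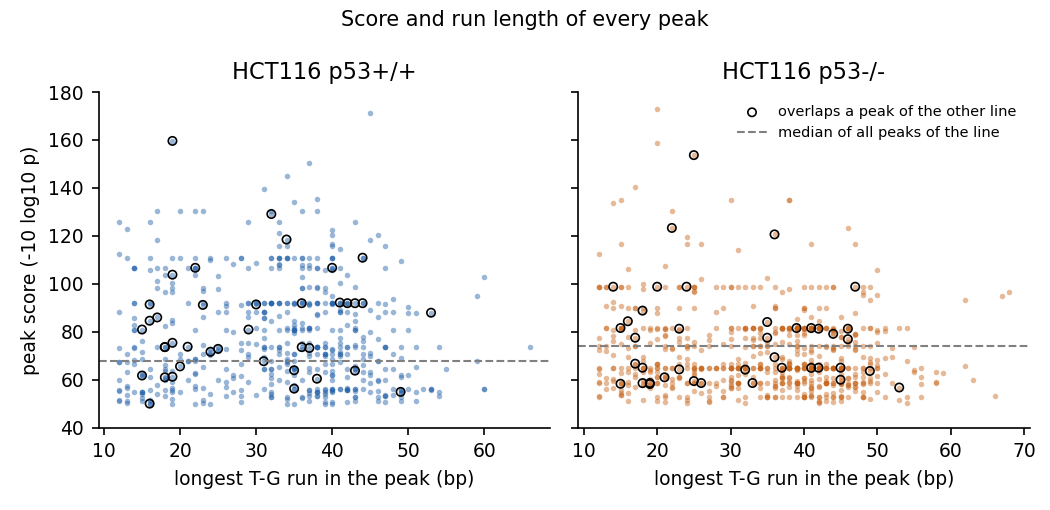
Score of every T-G peak in a coding gene (y axis, −10 log10 p) against the longest T-G run in the peak (x axis, bp) in HCT116 p53+/+ (left, 578 points) and HCT116 p53-/- (right, 736 points). Open circles overlap a peak of the other line and the dashed line is the median of all peaks of that line; scores form horizontal rows of tied values and do not climb with run length.

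The highest scores in HCT116 p53+/+ belonged to intronic peaks in genes of varied function. KCNJ6 encodes a G-protein-gated inward rectifier potassium channel, and its peak scored 171.04 (chr21:39218663-39218720, intron 1). It lay over an A-C run on the coding strand, of which 45 bp were in the peak and 52 bp in the genome. SP140, a nuclear body protein of leukocytes, followed with 159.61 (intron 22). ARHGAP6 had a peak of 150.52 (chrX:11259658-11259701, intron 2). RHBDL3, of the rhomboid family, had one of 145.09 (chr17:30636202-30636236, intron 7). SH3PXD2A, a scaffold protein of invadopodia, had one of 139.36 (chr10:105570644-105570768, intron 1), whose central 31 bases occurred once in the genome. FUT8, the core fucosyltransferase, had one of 135.29 (intron 6). Of these 6, SP140 alone overlapped a peak of HCT116 p53-/-. Even KCNJ6 ranked 156 of 5709 peaks in the list.

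The peaks with the highest scores of HCT116 p53-/- lay in other genes. SNRPN, an imprinted gene for a small nuclear ribonucleoprotein, had a peak of 172.87 (chr15:25089264-25089300), which ranked 553 of 8217 and lay outside its reference transcript. SMC6, a subunit of the SMC5-SMC6 complex of DNA repair, had a peak of 158.65 (chr2:17872579-17872624, intron 23). ASTN2, astrotactin 2, had one of 153.69 (intron 10) and was the only one of these 3 with a peak in the other line. LRMDA had a peak of 140.32 (intron 2). SOX5, a transcription factor, and CCDC102B tied at 134.93 with DPP6, an auxiliary subunit of voltage-gated potassium channels, and MACROD2, a mono-ADP-ribosylhydrolase. In the first 3 the longest T-G run in the peak was 20, 20 and 25 bp, and the SMC6 peak held a further run.

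The longest runs did not give the highest scores of their lists, and their scores lay on both sides of the median. ADCY5, an adenylyl cyclase, had 66 bp of run in its peak and a score of 73.65 (chr3:123043239-123043318, intron 8). RB1, the retinoblastoma protein gene, had 60 bp and 103.05 (chr13:48890861-48890940, intron 2), and ABLIM1, an actin-binding LIM protein gene, 60 bp and 56.34 (intron 2). In HCT116 p53-/-, NKAIN2 had 68 bp and 96.61 (chr6:125080699-125080806, intron 4), SLC4A10, a sodium-coupled bicarbonate transporter, 67 bp and 95.09, and CACNA1C, the pore subunit of an L-type calcium channel, 66 bp and 53.10 (intron 3). These 6 loci each had a peak in 1 of the lines.

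The T-G peaks of the cell lines were mostly at different loci. An overlap of at least 1 bp with a peak of the other line was found for 39 of 578 peaks of HCT116 p53+/+ (6.75%, 4.97 to 9.09), where 20.2% of all peaks of the list had one. For HCT116 p53-/- it was 40 of 736 (5.43%, 4.02 to 7.32), where all peaks gave 13.5%. Distal coding-gene peaks with a pyrimidine repeat were shared in 27.5% and 12.1% of cases, and those with no repeat in 11.5% and 12.99%. The share of the T-G peaks minus that of the pyrimidine-repeat peaks was −20.8 points in HCT116 p53+/+ (−24.8 to −16.7) and −6.70 points in HCT116 p53-/- (−8.97 to −4.25). Minus that of the peaks with no repeat it was −4.74 points (−7.90 to −1.54) and −7.55 points (−10.96 to −4.36). These intervals, by Newcombe's method, did not include 0. T-G peaks outside coding genes were shared in 5.10% and 4.38% of cases, and the interval of the difference from those inside included 0 in both lists (−0.961 to 4.38 points, and −1.07 to 3.27). Peaks with no repeat at a TSS stood at 66.2% and 35.8%.

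**Figure D4:**
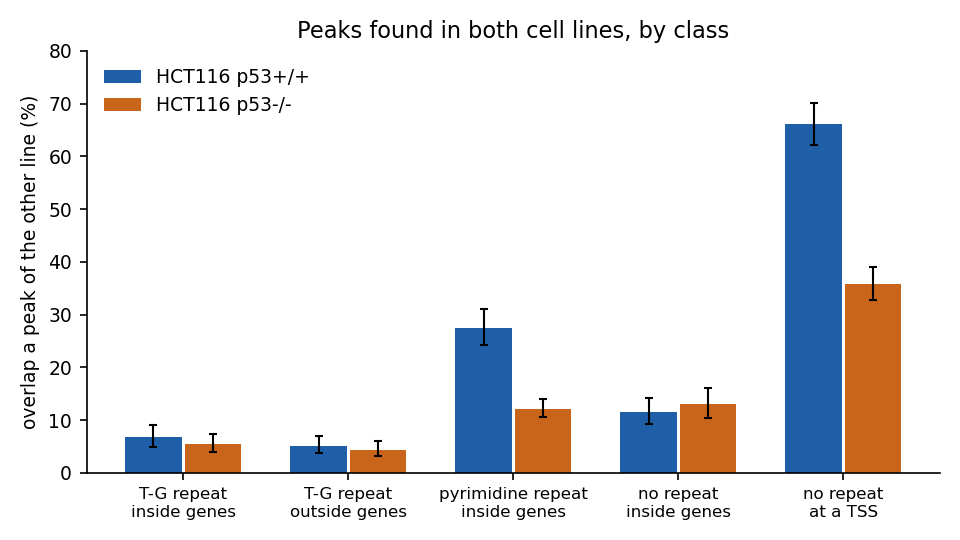
Share of peaks that overlap a peak of the other cell line by at least 1 bp (y axis, percent, from 0), by class of peak (x axis), for HCT116 p53+/+ (blue) and HCT116 p53-/- (orange). Error bars are 95% Wilson intervals; T-G repeat peaks were lowest, at 6.75% and 5.43% inside coding genes and 5.10% and 4.38% outside.

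Sharing was more frequent where the run was short. In HCT116 p53+/+, 13 of 102 peaks with a run of 12 to 19 bp were shared (12.7%, 7.60 to 20.6), against 10 of 206 at 30 to 39 bp (4.85%, 2.66 to 8.70) and 1 of 25 from 50 bp. In HCT116 p53-/- it was 11 of 109 (10.1%, 5.73 to 17.2), 8 of 212 (3.77%, 1.92 to 7.27) and 1 of 44. The central 31 bases occurred once in the genome in 64.7% and 59.6% of the peaks with the shortest runs, and in 14.6% and 12.3% of those at 30 to 39 bp, so run length and repeated sequence moved together. Among all peaks whose central 31 bases occurred once, 13 of 142 (9.15%) and 12 of 162 (7.41%) were shared.

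Seen from the runs, a run in a peak of 1 line was more often in a peak of the other than a run that was not. Of the 765 runs in a peak of HCT116 p53+/+, 61 were also in a peak of HCT116 p53-/- (7.97%, 6.26 to 10.1). For runs of 12 to 29 bp it was 32 of 314 (10.2%, 7.31 to 14.03), against 0.959% of the runs outside HCT116 p53+/+ peaks. For runs of 30 bp or more it was 29 of 451 (6.43%, 4.51 to 9.08), against 3.59%. Both length classes thus had shares above their background, and the gap was wider for short runs. This background was not matched for run length within a class. Among runs of 30 bp or more, those in a peak of HCT116 p53+/+ had a median length of 42 bp, against 38 bp for the rest. How much of the gap goes with run length was not tested.

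At 38 loci a T-G peak of a coding gene was present in both lists. Their centres lay a median of 5.5 bp apart (at most 34.5 bp), and the shorter peak lay wholly in the longer one in the median pair. The remaining overlapping peaks, 1 of HCT116 p53+/+ in FOXJ3 and 2 of HCT116 p53-/-, met a peak of another class. Scores at these loci ran from 50.09 to 159.61 (median 78.21) in HCT116 p53+/+ and from 56.81 to 153.69 (median 73.20) in HCT116 p53-/-. Both scores were above the median of all peaks of their list at 13 of the 38.

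Of the loci found in both lists, TMEM132C had the best pair of ranks, with 106.71 in HCT116 p53+/+ and 98.83 in HCT116 p53-/- (intron 1). Its central 31 bases occurred once in the genome in both lists, which held for 7 of the 38 loci. At FAXC, PLXDC2 and GRIK2 the central 31 bases occurred 171118 to 183643 times. FAXC had 92.22 and 98.83 (intron 4). At SP140 the scores were 159.61 and 88.86. ASAH2B, which has close paralogues, had 91.44 and 84.43 (intron 2). Its central 31 bases occurred once in the genome for the HCT116 p53+/+ peak and 29 times for the HCT116 p53-/- peak. Whether reads were split between copies was not tested. PTPRK encodes a receptor tyrosine phosphatase of cell junctions, and its peaks scored 118.50 and 84.12 (intron 7). PLXDC2 and GRIK2, a kainate receptor subunit, had tied scores of 91.96 and 81.61 (introns 4 and 14). Chromatin and cohesin genes were among the other shared loci. The peaks of HDAC4, a class II histone deacetylase, scored 91.44 and 69.45. Those of JARID2, a partner of Polycomb repressive complex, scored 91.96 and 64.99. Those of STAG1, a cohesin subunit, scored 87.99 and 56.81. These 3 shared loci were chosen after their values were seen.

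Within the genes, most T-G peaks were intronic. At the middle of the longest run the reference transcript had an intron in 503 of 578 peaks and in 633 of 736. Where coding genes overlapped, a host with an intron at that point was taken first, which favours introns in these counts. The first intron held 138 (23.9%, 20.6 to 27.5) and 165 (22.4%, 19.6 to 25.6) of them. A 3′UTR was found for 19 (3.29%) and 16 (2.17%), a coding exon or 5′UTR for 0 in either list, which allows a share of up to 0.660% and 0.519%. The other 56 and 87 lay between gene ends but outside the reference transcript. The nearest TSS was a median of 13.2 kb away in HCT116 p53+/+ (quartiles 5.02 and 29.6 kb) and 13.3 kb in HCT116 p53-/- (6.32 and 30.1 kb).

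The peaks were not nearer to exons than T-G runs in general. Within 500 bp of an exon of the host gene lay 72 of 578 (12.5%, 10.0 to 15.4) and 83 of 736 (11.3%, 9.19 to 13.8), beside 12.9% of all runs. The intervals of both lists included that share. At 100 bp the shares were 6.57%, 5.84% and 5.52%.

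Of the peaks whose run did not overlap an exon, more of the closest lay downstream of one than upstream. Downstream is the side of the 5′ splice site. Within 100 bp, 9 of 14 runs not overlapping an exon lay downstream in HCT116 p53+/+ and 16 of 19 in HCT116 p53-/-. The share of all genomic runs on this side was not computed. Whether the peaks prefer this side beyond the genomic runs was therefore not tested. In HCT116 p53+/+ the gaps from run to exon were 19 bp in DMC1, a meiotic recombinase (score 87.76), and 23 bp in FOXJ3, a forkhead factor (80.98). They were 26 bp in PTPRU, a receptor phosphatase (64.53), and 33 bp in SEC23A, a COPII coat protein (56.34). For HCT116 p53-/- the gaps were 5 bp in SIGLEC1, sialoadhesin (70.02), 8 bp in MYO15A, an unconventional myosin (68.03), and 14 bp in BRD8, a bromodomain protein (89.84). SLC24A2, a potassium-dependent sodium-calcium exchanger, had 19 bp (98.83) and alone lay upstream of its exon. All 8 had T-G on the coding strand. Of the runs within 100 bp of an exon but not overlapping one, T-G was on the coding strand for 12 of 14 in HCT116 p53+/+ and 12 of 18 in HCT116 p53-/-, leaving out hosts on both strands, and for 73.3% of all such runs in the genome (70.8 to 75.6).

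Over all peaks the orientation was that of the genome. T-G was on the coding strand in 338 of 568 peaks of HCT116 p53+/+ (59.5%, 55.4 to 63.5) and in 408 of 721 of HCT116 p53-/- (56.6%, 52.9 to 60.2), leaving out 10 and 15 peaks in genes of both strands. All genomic runs gave 58.1% (57.8 to 58.5). Of the genomic runs with T-G on the coding strand 1.14% lay in a peak of HCT116 p53+/+ (1.04 to 1.25), and of those with A-C 1.22% (1.10 to 1.36). Without p53 it was 1.63% (1.51 to 1.77) and 1.74% (1.59 to 1.91).

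The 19 and 16 peaks in a 3′UTR were scattered over as many transcripts apart from CYLC2, which had one in each list. CYLC2, a cytoskeletal protein of the sperm head, scored 110.92 and 65.06. The others named here, picked by raw score over both lists, were from HCT116 p53+/+. PTCHD1 had 125.64 (chrX:23419143-23419175). TAF8, a TFIID subunit, and LONRF1 tied at 106.71. MAPK10, the kinase JNK3, had 101.24, and DHODH, an enzyme of pyrimidine synthesis, 96.73.

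A CGCG element, searched as its core CTCGCGAG, which reads the same on both strands, was not found within 50 bp of any T-G peak in coding genes. Such an element is known as a BANP binding motif at CpG-island promoters. Among TSS peaks with no repeat, 132 of 550 in HCT116 p53+/+ and 208 of 886 in HCT116 p53-/- held it. The interval of the difference of the T-G peaks from them was −27.7 to −20.6 points and −26.4 to −20.8 points. The searched stretches were unequal, since these TSS peaks had a median length of 119 and 231 bp and the T-G peaks one of 50 bp. The other distal classes had almost none either, with 0.295% and 0.557% of coding-gene peaks without a repeat and 0% of pyrimidine-repeat peaks in coding genes and of T-G peaks outside them. The intervals of the differences of the T-G peaks from these classes all included 0. None of the 64951 genomic T-G runs had it in a window of 150 bp either. Its absence from the T-G peaks therefore follows largely from the choice of T-G sites, and the difference from TSS peaks is a description. The p53 consensus half-site, searched on both strands, was within 50 bp of 14 of 578 peaks (2.42%, 1.45 to 4.02) and 18 of 736 (2.45%, 1.55 to 3.83). In equal windows of 150 bp centred on the run the shares were 2.08% and 2.04%, beside 2.34% of all genomic runs. The highest-scoring peaks with the half-site were in NRG3, a neuregulin gene (130.47), MRRF (91.96) and DCLK2 (91.06) in HCT116 p53+/+. Those of HCT116 p53-/- were in LRRTM4 and MCC (98.83 each) and in GNAQ, a G-protein alpha subunit (90.85). These letters are a match in the sequence and not a measured p53 site.

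The host genes were long. At least 1 T-G peak lay in 549 of 20098 coding genes in HCT116 p53+/+ (2.73%) and in 672 in HCT116 p53-/- (3.34%). Their median length was 196.8 kb and 203.1 kb, against 63.2 kb for the 10855 coding genes that hold a T-G run under the same rule. They also held more runs, a median of 11 and 12 against 3. With gene length the share of genes with a peak rose from 1.44% and 1.80% up to 50 kb to 34.1% and 44.3% above 500 kb. Counted per run, however, the share in a peak was 0.991% (0.796 to 1.23) and 1.39% (1.16 to 1.67) in the shortest genes and 1.16% (1.01 to 1.33) and 1.81% (1.62 to 2.02) in the longest. In HCT116 p53+/+ the intervals of these gene classes overlapped, and in HCT116 p53-/- they overlapped by little.

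Both lists had a T-G peak in 138 genes, which was 25.1% of the genes of HCT116 p53+/+ and 20.5% of those of HCT116 p53-/-. Of all coding genes, 3.34% had a peak of HCT116 p53-/- and 2.73% one of HCT116 p53+/+. Long genes held a peak more often in either list, in 34.1% and 44.3% of those above 500 kb with a T-G run. How much of the overlap of genes goes with gene length was not tested. In 39 of them peaks of the lines overlapped, and in 99 the peaks of the lines were at different places of the gene. More than 1 peak of a list fell in few genes: 40 genes had 2, 5 had 3 and 2 had 4 in HCT116 p53+/+, and 68 had 2, 14 had 3 and 1 had 4 in HCT116 p53-/-. Only 10 and 6 peaks had another T-G peak of their list within 10 kb.

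CSMD1, a complement-regulatory transmembrane protein gene of 2059.6 kb, had the most distinct loci, 7, with 4 peaks in HCT116 p53+/+ (scores 110.92, 106.71, 90.70 and 56.34) and 3 in HCT116 p53-/- (98.83, 81.61 and 69.53). None of the 7 was shared. Of its 160 runs, 7 were in a peak with p53 and 4 without it. RBFOX1, a neuronal splicing regulator, had 5 loci, with 2 peaks (70.66 and 53.25) and 3 peaks (93.39, 60.82 and 58.68). NRXN3, a presynaptic adhesion protein, likewise had 2 (91.96 and 73.66) and 3 (81.61 for a pair of them, and 75.58). CREB5, a transcription factor, had 3 (88.35, 72.61 and 56.34) and 2 (80.83 and 77.57), and ZFHX3, a zinc-finger homeobox factor, 3 (69.37, 68.57 and 50.33) and 2 (78.57 and 65.06). MACROD2 had 1 peak with p53 (110.92) and 3 without it (134.93 and a pair at 81.61). At each of these 6 genes the loci of the lines did not coincide. The genes were picked for the most distinct loci, where a shared locus counts once, so the choice works against shared loci. Of all T-G peaks in coding genes, only 6.75% and 5.43% were shared.

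Gene lists were read against these backgrounds, per gene and per run. Giant genes at common fragile sites had a T-G peak in 16 of 28 genes in each list, and 23 of 28 in either, but held 2696 runs. Of these runs 1.08% (0.750 to 1.54) and 1.34% (0.966 to 1.84) were in a peak, near the 1.18% and 1.70% of all runs. Cadherins, catenins and synaptic adhesion genes had a peak in 19 and 24 of 67, with 1.12% and 1.75% of 3035 runs in a peak. Among their members CADM2, a synaptic cell adhesion molecule, and PCDH11X, a protocadherin with a near-identical copy on Y, tied at 130.47 in HCT116 p53+/+. CADM2 had 3 further peaks in that list. Voltage-gated and ligand-gated channels had a peak in 12 and 17 of 73 genes, among them the cation channel TRPM3 (118.40 in HCT116 p53+/+). Of their 1803 runs 0.998% and 1.997% were in a peak.

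Signalling and regulatory lists had a T-G peak in smaller shares of their genes than the lists above, whose genes were longer. Median gene lengths were 41.6 to 108.0 kb here and 383.4 to 1370.6 kb above, against 27.3 kb for all coding genes. In each list named here the share of genes with a peak was above the 2.73% and 3.34% of all coding genes. WNT and beta-catenin genes had a peak in 3 of 72 in each list. In HCT116 p53+/+ these included the transcription factor LEF1 (98.85) and the WNT antagonist NKD1 (66.51). TGF-beta and BMP genes had a peak in 2 and 4 of 42, with the receptor BMPR1B at 116.63 in HCT116 p53-/- and the co-receptor TGFBR3 at 76.01 in HCT116 p53+/+. Genes of the receptor tyrosine kinase, RAS and PI3K pathway had a peak in 5 of 69 in each list. In HCT116 p53+/+ these included the neurotrophin receptor NTRK3 (91.96) and the exchange factor SOS1 (70.66). RNA-binding splicing regulators had a peak in 4 of 63 in each list, with PTBP2, a neuronal polypyrimidine-tract binding protein, at 110.92 in HCT116 p53+/+. Matrix attachment and chromatin factors had a peak in 4 and 5 of 69. In HCT116 p53+/+, ARID2, a subunit of a SWI/SNF complex, stood at 130.47 and HDAC4 at 91.44. The p53 pathway had a peak in 2 and 3 of 45 genes, with the p53 homologue TP73 at 81.61 in HCT116 p53-/- and the recombination gene RAD51B at 64.43 in HCT116 p53+/+. For each of the 9 lists and both cell lines, the interval of the share of runs in a peak included the share of all runs.

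**Figure D5:**
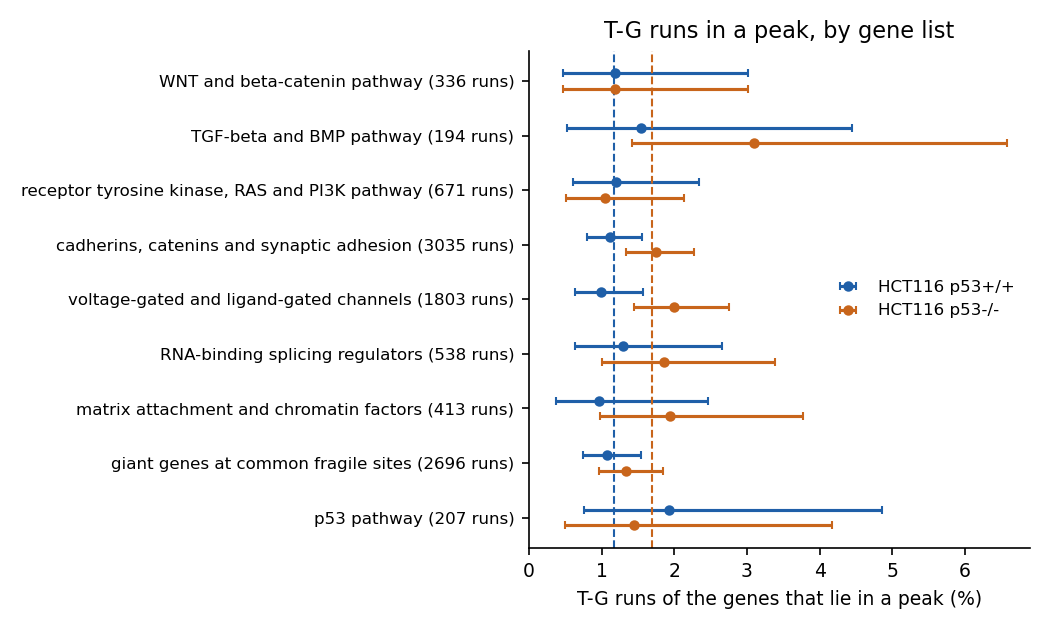
Share of the T-G runs of each gene list that lie in a SMAR1 peak (x axis, percent), by list with its number of runs (y axis), in HCT116 p53+/+ (blue) and HCT116 p53-/- (orange). Bars are 95% Wilson intervals and dashed lines the shares of all runs, 1.18% and 1.70%; every interval includes the dashed line of its cell line.

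Every chromosome from 1 to 22 and X held T-G peaks in coding genes in both lists. The share of a chromosome's runs in a peak ranged from 0.773% on chromosome 20 to 1.62% on chromosomes 17 and X in HCT116 p53+/+, and from 1.06% on chromosome 19 to 2.32% on X in HCT116 p53-/-. On X the share was 1.62% (1.22 to 2.14) and 2.32% (1.84 to 2.93), and both intervals lay above the share of all runs. In HCT116 p53-/- the interval also lay above it on chromosome 7 (2.15%, 1.74 to 2.64) and below it on chromosome 3 (1.27%, 0.996 to 1.62), out of 23 chromosomes compared.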

How the data were processed

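SMAR1 ChIP DNA from HCT116 p53+/+ and HCT116 p53-/- cells was sequenced as single-end reads. Per the labels and the study's methods, the authors trimmed reads with cutadapt 1.2.1, aligned them to hg19 with Bowtie2 2.2.1, converted them with SAMtools and called peaks with MACS 1.4.2, each library separately. The deposited lists give each peak's position and a score (MACS, −10 times the log10 of p), which is not scaled for depth. It was not compared between lines, apart from picking some named peaks by raw score over both lists. The study's methods filtered peaks on fold enrichment, which the lists do not hold. Whether the IgG libraries were the MACS control is not given in the sources used here. The methods list more reads for the HCT116 p53-/- library, so p53 status and depth cannot be told apart.

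Positions were made 1-based and set on GRCh37 with GENCODE release 44 mapped to that build, which is newer than the study's annotation. All chromosomes from 1 to 22 and X were used. A peak with its centre in several coding genes counted in each when genes were counted, and was named by 1 of them. Central 31-mers were counted over the genome on both strands. Shares have 95% Wilson intervals and differences Newcombe intervals. Peaks and genes are no replicates, and no test was run over them. The run finder, overlaps and distances were tested on simulated data. The work used pandas 2.3.3, numpy 2.4.6, statsmodels 0.14.6, scipy 1.17.1, matplotlib 3.10.9 and numba 0.67.0 under Python 3.11.15.

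The members, gene lists and naming rule were chosen with earlier results of these data known. Named were, per list, the 6 highest scores, the 3 longest runs and the 3 highest scores with the p53 half-site. Also named per list were the 4 peaks nearest an exon without overlapping one. Over both lists they were the 8 best shared loci, the 6 best scores in an exon, the 6 genes with most loci and the 2 best genes of each gene list. A few items chosen by these rules are not reported here.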

Additional observations from a re-analysis of the deposited data

How the results depend on the processing

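The 20 results were each recomputed under their own alternatives, in 76 values. Sharing by run length, flanks, gene lists, gene length and chromosomes were given under 1 setting. Of the 76 values, 39 stayed within the 95% interval of the reported value (for ranks, in direction) and 37 moved beyond it. A change of direction was defined only for the difference in median score, where 0 values changed sign. No replicate could be left out, since there was 1 library per line, and no paired analysis was possible because the lines had 1 library each. Values are given for HCT116 p53+/+ and then HCT116 p53-/-.

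The share of T-G peaks in the list was 8.34% and 7.63% with a minimum run of 20 bp, 10.98% and 9.66% with gene starts only, 7.60% and 7.12% beyond 5 kb of a TSS, 11.6% and 11.3% with T-C runs allowed, and 12.5% and 6.62% in the part of the list from the median score up. The last widened the gap between the lines. The share found in both lines was 9.15% and 7.41% where the central 31 bases occurred once. The share of genomic runs in a peak was 1.96% and 2.82% for runs from 20 bp, 0.687% and 1.08% with the whole run in the peak, and 0.688% and 0.622% with peaks at or above the median score, which turned the order of the lines, and 1.59% in HCT116 p53-/- with runs within 20 bp joined. The difference in median score was 1.51 in HCT116 p53+/+ among longer peaks. Near an exon were 6.57% and 5.84% at 100 bp and 18.9% and 17.3% at 1000 bp. The median run was 36.5 and 39 bp when runs were summed, and 37 and 39 bp with 1 mismatch allowed. The p53 half-site was in 0% and 0.136% of peaks with no added bases, and in 4.50% and 4.76% with 100 bp. Coding genes with a peak were 1.75% and 1.31% at or above the median score, 2.30% and 2.89% with runs from 20 bp, and 3.06% in HCT116 p53-/- in introns of protein-coding transcripts.

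Depth, reads matching many places and the enrichment filter limit these values and could not be varied from peak lists.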
